A study of Mus musculus with 16 samples.

Results

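The liver transcripts of 10 nuclear receptors that sense lipids, hormones and foreign compounds were examined: *Ppara*, *Pparg*, *Rxra*, *Nr1h2*, *Nr1h3*, *Nr1i2*, *Nr1i3*, *Nr3c1*, *Thrb* and *Esr1*. They were chosen by name, with earlier results of these data known, as 10 of the 52143 genes in the count table. All 10 were among the 11324 genes expressed highly enough to be tested. Nuclear receptors are transcription factors that bind a small fat-soluble ligand and then change the transcription of target genes. In the liver they adjust fatty acid oxidation, cholesterol disposal, drug metabolism and glucose output to what is eaten and to circulating hormones. Many of them bind DNA as a dimer with RXRA, the retinoid X receptor.

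The 16 livers, 4 in each of 4 groups, were from C57BL/6J males aged 6 weeks when the diets began. The mice had 12 weeks on chow or on high-fat food (HFD), labelled as 60% fat. The Chow and HFD groups were injected with saline, and the Chow/FGFR4 KD and HFD/FGFR4 KD groups with an siRNA against *Fgfr4* at 3 mg/kg, each every 2 weeks. The siRNA carried N-acetylgalactosamine, a sugar that directs it to hepatocytes, and all mice were otherwise of the same wild-type strain. No group received a control siRNA, so an effect of siRNA as such and of lower *Fgfr4* cannot be told apart. The labels do not say which cages or days the mice came from, so p-values measure only the spread between these libraries.

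Libraries held 3445949 to 5976449 counts. *Fgfr4* was between 21.8 and 36.3 CPM (TMM-scaled counts relative to library size) in the 8 saline libraries and between 2.43 and 6.17 CPM in the 8 knockdown (KD) libraries, without overlap. Hepatocyte markers summed to between 63319 and 86084 CPM in every library over 7 genes found. Differences between 2 libraries of a group, as chi-square per degree of freedom over 7405 genes, ran from 7.59 to 72.6. They were 48.0 to 72.6 for pairs with HFD/FGFR4 KD 1 and at most 16.6 for the other pairs of its group, but also 56.5 for HFD 1 and HFD 2, 58.9 for HFD 2 and HFD 3, and 46.7 for Chow 2 and Chow 3. Leaving out single libraries moved the number of genes called for KD on HFD from 356 to 622 (without HFD 2) or 89 (without HFD 3), and to 137 without HFD/FGFR4 KD 1. The uncharacterised transcript Gm42418 took 11.1% to 22.7% of all counts. Values were scaled by the trimmed mean of M-values (TMM), and scaling by library totals alone shifted the median gene by 0.28 on the log2 scale for HFD in saline mice, 0.15 for HFD in KD mice and -0.13 for how far the KD effects differed between diets.

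Genes count as called here when limma-voom gave p under 0.05 and, after Benjamini-Hochberg adjustment, under 0.25, which is the cutoff the study used. By this rule, HFD in saline mice called 3 of the 10 receptors (*Ppara*, *Pparg* and *Nr1i3*), where 26% of all genes tested were called. All 3 were higher on HFD, a direction in which 13.3% of all genes were called. HFD in KD mice called 2 of 10 (*Ppara* and *Nr1i3*), both higher, where 20.2% of all genes were called and 10.1% were called and higher. KD on HFD called none of the 10, where 3.14% of genes were called. KD on chow called none of the 10 either, where 0.00883% of genes, that is 1 gene, *Fgfr4*, was called. These shares of the receptors lie near the background, so their number is not a result about them as a group. With limma-voom at an unadjusted p under 0.05, 1 receptor (*Pparg*) was below saline on HFD and 0 differed on chow. Neither edgeR nor DESeq2 called any receptor in these KD comparisons. Without HFD/FGFR4 KD 1, KD on HFD again called 0 receptors and HFD in KD mice again called 2.

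**Figure D1:**
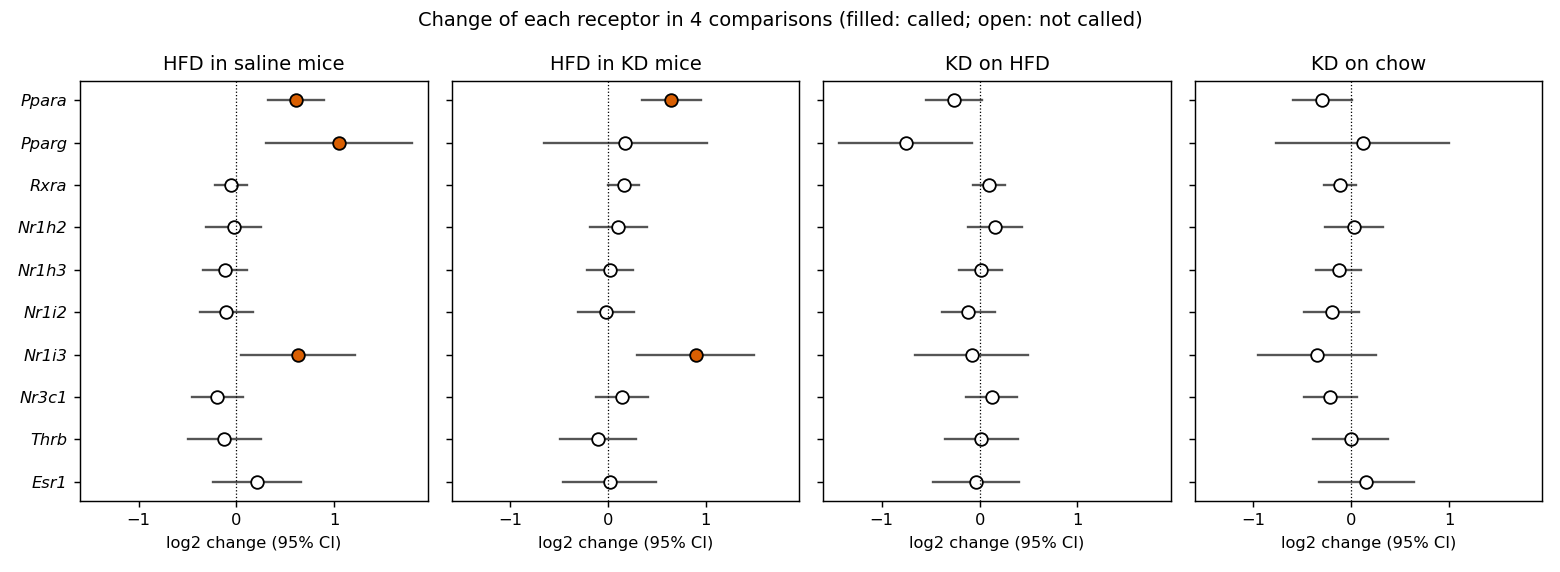
Log2 change of each of the 10 receptors with its 95% confidence interval from limma-voom (x axis) in 4 comparisons, filled where called and open where not. *Ppara* and *Nr1i3* are called in both HFD comparisons and *Pparg* only in saline mice, and no receptor is called in either KD comparison.

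Upstream sequence is shown for 3 receptors as a description, since so few windows cannot set receptors that changed against those that did not. *Nr1i3* was called in both HFD comparisons, *Nr1i2* is its nearest relative and was called in none, and *Pparg* was called in saline mice. The 250 bases before the RefSeq start site were taken from the GRCm38.p6 table, which held 15 windows for 9 of the 10 receptors. The windows of *Ppara*, *Thrb* and *Esr1* overlap annotated exons and are not shown. Windows of *Rxra* are free of exons but are not shown either. For *Pparg* the most downstream of 3 start sites is given, since the others overlap exons. Capitals mark CACGTG, the E-box read by CLOCK and BMAL1, and any match to TTANGTAA (bound by DBP, TEF and HLF), ANTAGGTCA (bound by REV-ERB and ROR receptors), AGGTCA or TATAAA, searched on both strands. ANTAGGTCA contains AGGTCA.
Nr1i3 (chr1:171213720-171213969, plus strand): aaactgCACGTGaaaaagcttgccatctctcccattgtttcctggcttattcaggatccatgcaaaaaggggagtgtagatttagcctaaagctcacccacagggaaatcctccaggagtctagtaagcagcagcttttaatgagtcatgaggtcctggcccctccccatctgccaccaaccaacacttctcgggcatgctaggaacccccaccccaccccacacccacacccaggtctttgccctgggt
Nr1i2 (chr16:38294825-38295074, minus strand): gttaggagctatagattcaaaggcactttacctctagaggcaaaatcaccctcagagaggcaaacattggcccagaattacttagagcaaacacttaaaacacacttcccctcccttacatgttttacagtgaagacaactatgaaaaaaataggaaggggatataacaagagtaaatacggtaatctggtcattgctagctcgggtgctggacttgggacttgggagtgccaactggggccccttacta
Pparg (chr6:115421816-115422065, plus strand): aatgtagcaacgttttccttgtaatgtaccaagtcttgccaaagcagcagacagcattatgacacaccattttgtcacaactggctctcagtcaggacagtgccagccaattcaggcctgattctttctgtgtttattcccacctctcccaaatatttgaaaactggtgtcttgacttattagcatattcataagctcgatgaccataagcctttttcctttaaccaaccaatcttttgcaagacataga

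The *Nr1i3* window held a CACGTG whose last base lies 239 bases before the start site, and CACGTG was present in 6.02% of 32851 windows of this length. CACGTG was also in a window of *Thrb*, 188 bases before the start site, although *Thrb* was called in neither HFD comparison. The *Nr1i2* and *Pparg* windows shown held none of these motifs. The *Pparg* windows not shown each held AGGTCA, and one of them also TATAAA. A window of *Rxra* held AGGTCA on both strands. TTANGTAA was in 2.06%, ANTAGGTCA in 0.548%, AGGTCA in 14.0% and TATAAA in 12.4% of all windows. These matches describe letters in a short window and are not evidence of binding.

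*Ppara* encodes PPAR-alpha, the fatty acid sensor that drives fatty acid oxidation and ketone body production in the fasted liver. It is on chromosome 15 (GRCm38, 85734983 to 85802819, plus strand). The Chow libraries had 74.2, 103, 86.6 and 116 CPM, and the HFD libraries 131, 137, 141 and 161 CPM. Every HFD library was above every Chow library. *Ppara* rose by 0.61 on the log2 scale (SE 0.14, 95% CI 0.32 to 0.90, limma-voom adjusted p 0.0119), or 1.53-fold. In Chow/FGFR4 KD it had 76.5, 84.8, 78.7 and 64.5 CPM, and in HFD/FGFR4 KD 139, 136, 107 and 99.2 CPM. These groups did not overlap either, and the rise was 0.65 (SE 0.14, 95% CI 0.35 to 0.95, adjusted p 0.0221), or 1.57-fold. The comparisons use different libraries. Without HFD/FGFR4 KD 1 the second was 0.58 with an adjusted p of 0.0349. *Ppara* was called under every alternative in both comparisons, with changes between 0.50 and 0.89 in saline mice and between 0.57 and 0.81 in KD mice. Of all genes tested, 16.1% did not overlap between Chow and HFD, and 11.5% did not overlap between Chow/FGFR4 KD and HFD/FGFR4 KD.

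Below its saline control in mean on both diets, *Ppara* did not pass the test for the KD. The change was -0.26 on HFD (95% CI -0.54 to 0.03, limma-voom adjusted p 0.515) and -0.30 on chow (95% CI -0.60 to 0.00446, adjusted p 0.976). The KD and saline groups overlapped on each diet. Without HFD/FGFR4 KD 1 the change on HFD was -0.33 (adjusted p 0.511). Averaged over both diets, a contrast added after the data were seen, the change was -0.28 (SE 0.098, unadjusted p 0.0121, adjusted p 0.443), and 0 of 10 receptors were called, where 0.486% of all genes were called. DESeq2 called *Ppara* alone in that contrast, with a change of -0.28 and an adjusted p of 0.184. The 95% CI of the averaged change was -0.49 to -0.07, and 1006 of all genes had an unadjusted p under 0.05 there.

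**Figure D2:**
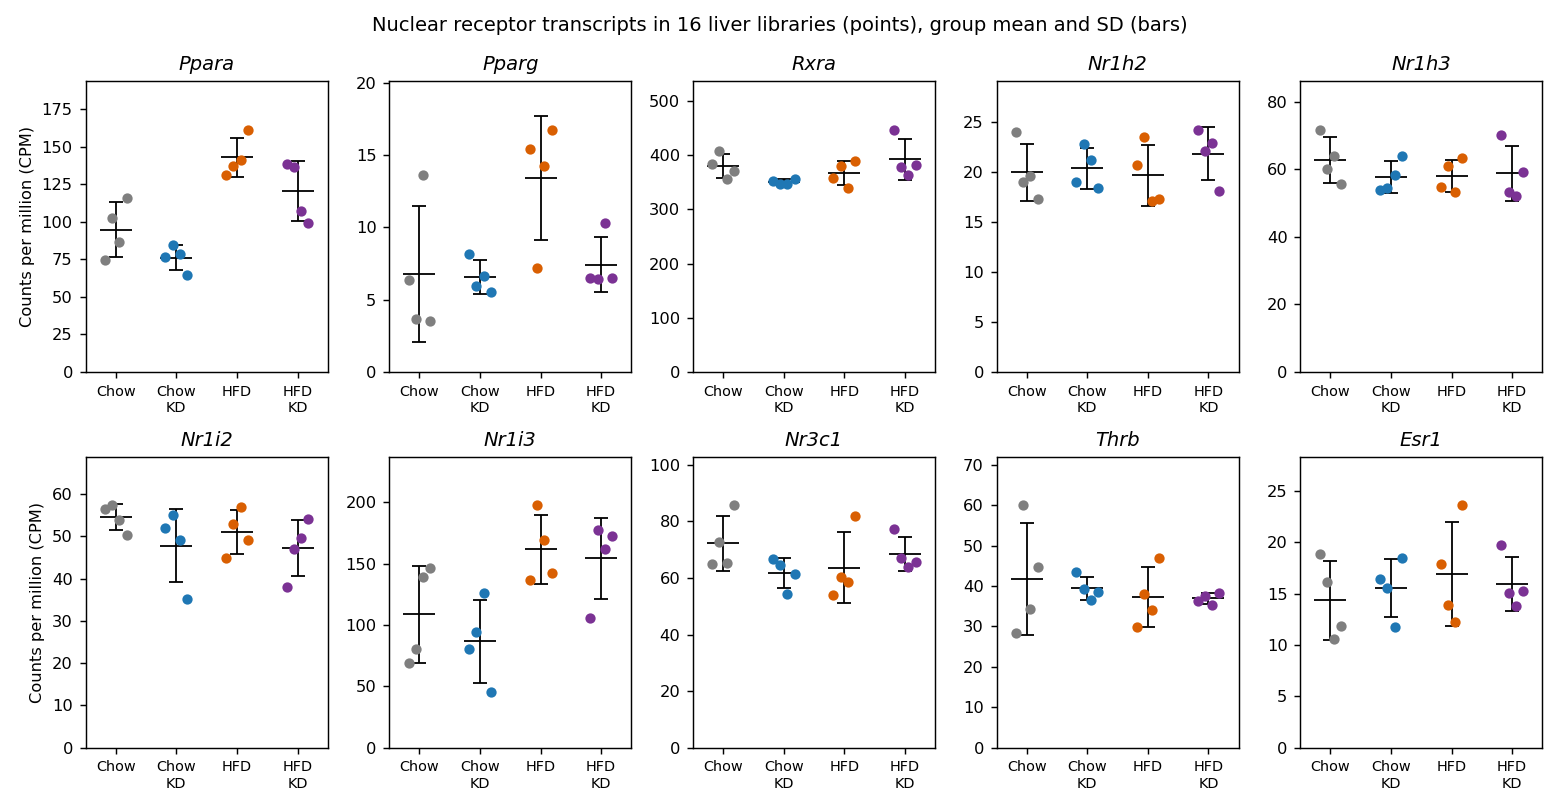
Level of each receptor in CPM (y axis from 0) in the 16 libraries by group (KD, knockdown). Points are libraries, and bars are the group mean with SD (n = 4). The HFD libraries of *Ppara* lie at 131 to 161 CPM, above all Chow libraries, while most other receptors cover the same range in every group.

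*Pparg*, on chromosome 6 (115360951 to 115490399, plus strand), encodes PPAR-gamma, which directs fat storage and is most abundant in adipocytes. It was low in these livers, with 14 to 107 counts in a library. The Chow libraries had 6.36, 3.65, 13.6 and 3.55 CPM and the HFD libraries 15.4, 7.19, 14.3 and 16.8 CPM. Chow 3 and HFD 2 reached into the range of the other group. The rise on HFD was 1.05 on the log2 scale (SE 0.35, 95% CI 0.30 to 1.79, limma-voom adjusted p 0.0719), or 2.07-fold, and was called under every alternative except the stricter threshold of 0.05. In KD mice *Pparg* was at 8.13, 5.94, 6.66 and 5.51 CPM on chow and at 6.50, 6.42, 10.3 and 6.48 CPM on HFD. Here the groups overlapped and the change was 0.18 (95% CI -0.66 to 1.01, adjusted p 0.846).

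On HFD, *Pparg* was lower with the KD in mean (7.42 ± 1.91 against 13.4 ± 4.27 CPM, mean ± SD, n = 4), a change of -0.76 (SE 0.32, 95% CI -1.44 to -0.07, unadjusted p 0.0318) that was not called (limma-voom adjusted p 0.393). Leaving out HFD 2, the lowest HFD library, gave -1.03 and a call (adjusted p 0.109), leaving out HFD/FGFR4 KD 1 gave -0.69 (adjusted p 0.613), and over all alternatives the adjusted p ran from 0.109 to 0.622. The difference between the KD effects on the diets was -0.87 (95% CI -1.99 to 0.24, adjusted p 0.800), so a dependence of the KD on diet was not shown. None of the 10 receptors was called for that difference, where 0.0353% of all genes were called. With limma-voom none had an unadjusted p under 0.05 there, and neither edgeR nor DESeq2 called any.

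Markers of adipocytes, the cells richest in PPAR-gamma, were read in the same libraries. *Adipoq*, *Plin1* and *Retn* had at most 1.21 CPM in any library, *Lep* and *Adig* were at 0 throughout, and *Plin1* was at 0 in all 4 HFD libraries, where *Pparg* was highest. *Fabp4* and *Cfd*, also on the list of 8, rose on HFD in saline mice, by 1.74 (limma-voom adjusted p 0.00763) and 2.82 (adjusted p 0.0214), and in KD mice, by 1.04 (adjusted p 0.130) and 3.22 (adjusted p 0.0752). With the KD on HFD, *Cfd* fell by 1.57 (adjusted p 0.228). The list summed to between 1746 and 4423 CPM over all libraries, with medians of 3641 in Chow and 2777 in HFD, nearly all from *Car3*, which liver also makes. Macrophage markers, which form another cell type that uses *Pparg*, summed to 65.5 to 73.6 CPM in Chow, 123 to 215 in HFD, 82.3 to 110 in Chow/FGFR4 KD and 99.1 to 179 in HFD/FGFR4 KD. Of 9, 8 rose on HFD in saline mice and 2 in KD mice, or 8 in KD mice without HFD/FGFR4 KD 1, and none was at 0 in a whole group. Markers of stellate cells, the vitamin A-storing cells of the liver, summed to 103 to 149.9 CPM in Chow and 160 to 234 in HFD, without overlap, and to 77.5 to 136 in Chow/FGFR4 KD and 127 to 181 in HFD/FGFR4 KD. Of 7, 4 rose on HFD in saline mice and 3 in KD mice, and none was at 0 in a whole group. When single libraries were left out, 4 to 5 rose in saline mice and 0 to 4 in KD mice. Of all genes tested, 13.3% were called and higher on HFD in saline mice and 10.1% in KD mice. The part of these cell types in the *Pparg* result was not tested. In whole tissue, more cells of a type and more RNA per cell cannot be told apart.

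*Nr1i3* encodes CAR, the constitutive androstane receptor, which induces drug-metabolising enzymes. It is on chromosome 1 (171213970 to 171220701, plus strand). The Chow libraries had 69.1, 80.6, 139 and 146 CPM and the HFD libraries 137, 198, 169 and 142 CPM, so 2 Chow libraries lay within the HFD range. The rise was 0.63 on the log2 scale (SE 0.28, 95% CI 0.05 to 1.21, limma-voom adjusted p 0.161). The call was lost with edgeR (0.57, adjusted p 0.201, with p over 0.05) and without Chow 1 (0.43, adjusted p 0.400), Chow 2 (0.52, 0.339), HFD 2 (0.53, 0.273) or HFD 3 (0.60, 0.272). The Chow/FGFR4 KD libraries had 80.7, 94.4, 126 and 45.2 CPM and the HFD/FGFR4 KD libraries 106, 177, 162 and 173 CPM, where HFD/FGFR4 KD 1 was below the highest chow library. This rise was 0.90 (SE 0.28, 95% CI 0.30 to 1.49, adjusted p 0.0917), was called under every alternative except the threshold of 0.05, and was 1.07 (adjusted p 0.0416) without HFD/FGFR4 KD 1.

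Exons of *Nr1i3* overlap those of *Tomm40l*, a mitochondrial import gene on the other strand, by 3304 bases, and 68.1% of its 31-base words occur in transcripts of other genes when both strands are read, against 0.0% on its own strand. Whether counting used the strand was not given in the sources used here. *Tomm40l* held 579 counts in all 16 libraries together and was at 9.73 ± 2.02 CPM in Chow, 5.98 ± 0.39 in HFD, 9.01 ± 2.63 in Chow/FGFR4 KD and 5.58 ± 2.23 in HFD/FGFR4 KD (mean ± SD, n = 4). Its mean was thus lower on HFD, where that of *Nr1i3* was higher. Within groups, the deviations of the 2 genes from their group means had r = -0.51 over the 16 libraries. Whether reads of one gene were counted for the other was not tested. The other 9 receptors shared at most 0.68% of their words.

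The average of the HFD effect over saline and KD mice was added after the data were seen. It called the same 3 receptors, where 33.2% of all genes were called: *Ppara* at 0.63 (SE 0.098, limma-voom adjusted p 0.000525), *Nr1i3* at 0.76 (SE 0.20, adjusted p 0.0139) and *Pparg* at 0.61 (SE 0.26, adjusted p 0.115). *Ppara* and *Nr1i3* also passed 0.05 and kept the call without any single library. *Pparg* lost it without any of 8 libraries (HFD/FGFR4 KD 3, 3 from HFD, and 2 from each chow group), with adjusted p up to 0.231 and p over 0.05.

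*Rxra* encodes the shared dimer partner and was the steadiest receptor. It is on chromosome 2 (27676440 to 27762957, plus strand). It was at 380 ± 22.2 CPM in Chow, 350 ± 5.03 in Chow/FGFR4 KD, 366 ± 22.2 in HFD and 392 ± 37.4 in HFD/FGFR4 KD (mean ± SD, n = 4). Of the 4 comparisons between groups, its change was largest for HFD in KD mice, with 353, 346, 346 and 356 CPM on chow below 447, 378, 363 and 382 CPM on HFD. The groups did not overlap, but the change of 0.16 (95% CI -0.00193 to 0.32, limma-voom adjusted p 0.252) missed the call, and it was 0.10 (adjusted p 0.469) without HFD/FGFR4 KD 1, the highest library. DESeq2, library totals and leaving out HFD/FGFR4 KD 3 each called it, with adjusted p of 0.213, 0.0493 and 0.242. In saline mice the change was -0.05 (95% CI -0.22 to 0.11).

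The remaining 6 receptors were called in no comparison with all libraries and TMM scaling. *Nr1h3* and *Nr1h2* encode the liver X receptors LXR-alpha and LXR-beta, which sense oxidised cholesterol. *Nr1h3* lay between 52.1 and 71.8 CPM and *Nr1h2* between 17.2 and 24.3 CPM over the 16 libraries. Neither gene separated any pair of groups. Their changes on HFD were -0.12 (95% CI -0.34 to 0.11) and -0.03 (95% CI -0.31 to 0.25) in saline mice, and 0.02 (95% CI -0.21 to 0.25) and 0.11 (95% CI -0.18 to 0.40) in KD mice.

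*Nr1i2*, which encodes the pregnane X receptor PXR, a sensor of drugs and bile acids, was between 35.3 and 57.4 CPM. It changed by -0.10 (95% CI -0.37 to 0.17) on HFD in saline mice and by -0.02 (95% CI -0.30 to 0.26) in KD mice. Its intervals in these 2 comparisons exclude a rise of more than 0.26, less than the estimates for *Nr1i3*, although the difference between the genes was not tested.

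The 3 hormone receptors also overlapped between groups. *Nr3c1*, the glucocorticoid receptor, lay between 53.9 and 85.7 CPM, and its changes ran from -0.21 (KD on chow, 95% CI -0.48 to 0.06) to 0.14 (HFD in KD mice, 95% CI -0.13 to 0.41). *Thrb*, the main liver thyroid hormone receptor, lay between 28.3 and 60.0 CPM, both ends being Chow libraries. Its changes in the 4 comparisons were between -0.12 and 0.02. *Esr1*, the oestrogen receptor alpha, lay between 10.5 and 23.6 CPM, with changes between -0.04 and 0.21. Leaving out HFD 4, the highest HFD library, called *Nr3c1* on HFD in saline mice (-0.32, adjusted p 0.0827). Among the 6 with all libraries, the smallest adjusted p in the HFD and KD comparisons was 0.334, for *Nr3c1* on HFD in saline mice.

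Library totals changed the sign for several of these receptors. With them, *Rxra*, *Nr1h2*, *Nr1h3*, *Nr1i2*, *Nr3c1* and *Thrb* were higher on HFD in saline mice, by 0.09 to 0.25. Each value moved from TMM to library totals by about the 0.28 of the median gene, as for *Rxra* from -0.05 to 0.23. With library totals 5 receptors were called in saline mice and 4 in KD mice. Of all calls, the share that was higher went from 51.2% to 92.1% in saline mice and from 50.1% to 82.8% in KD mice. *Ppara*, *Pparg* and *Nr1i3* were higher with either scaling in saline mice.

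Ratios between receptors in the same library do not depend on scaling and were computed as counts per kilobase of exon. *Nr1i3* to *Nr1i2* was 0.706, 0.812, 1.49 and 1.68 in Chow and 1.76, 2.16, 1.72 and 1.68 in HFD. Chow 4 and HFD 4 met at 1.68 and the other HFD libraries were above all Chow libraries. With the KD the ratio was 0.898, 0.991, 1.49 and 0.741 on chow and 1.60, 2.17, 1.89 and 1.84 on HFD, without overlap.

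*Rxra* to *Ppara* fell in median from 2.84 (2.25 to 3.63) in Chow to 1.80 (1.69 to 1.94) in HFD, and was 3.16 (2.86 to 3.88) in Chow/FGFR4 KD and 2.32 (1.95 to 2.70) in HFD/FGFR4 KD. Diet groups did not overlap within either treatment, and nor did HFD and HFD/FGFR4 KD. *Nr1h3* to *Nr1h2* stayed between 3.03 and 4.85 over all libraries, with all groups overlapping. *Ppara* to *Pparg* covered 4.91 to 25.1 in Chow alone. The ratios were chosen after the values were seen and are given without a test.

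**Figure D3:**
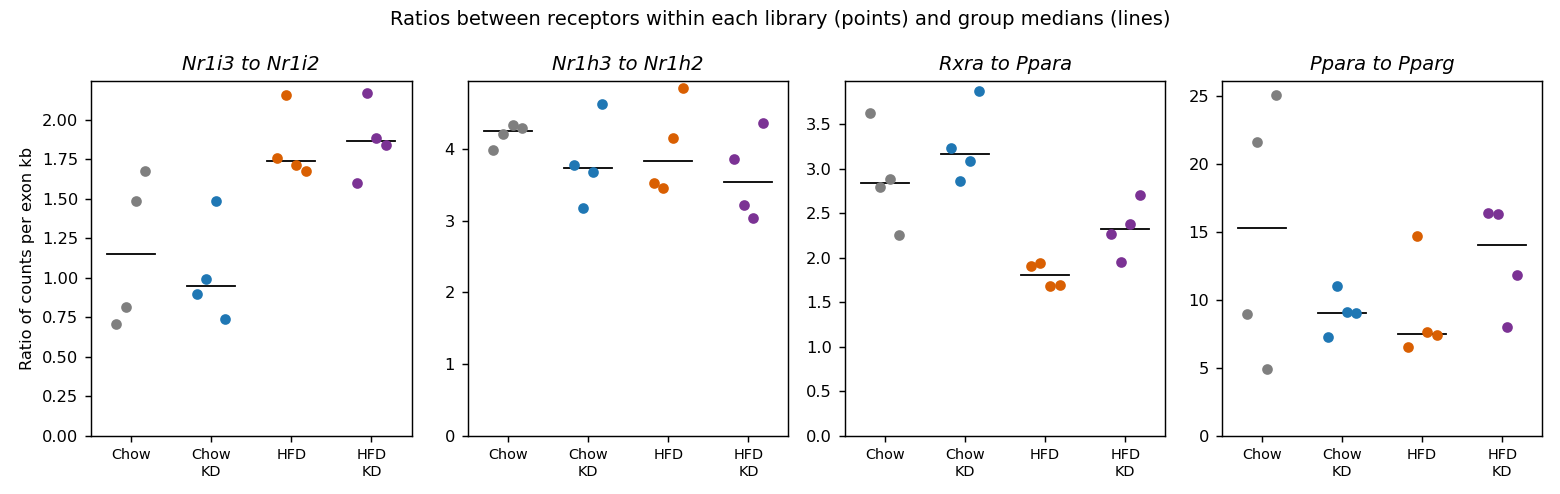
Ratio of counts per kilobase of exon between pairs of receptors (y axis from 0) in each library (points), with group medians (lines). *Nr1i3* to *Nr1i2* is at 1.60 or above in all 8 HFD libraries, and *Rxra* to *Ppara* is lowest in HFD, at 1.69 to 1.94.

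Levels were compared between receptors only per length. As the mean of the 4 groups in CPM per kilobase of merged exons, the order was *Rxra* (68.2), *Nr1i3* (28.9), *Ppara* (28.3), *Nr1h3* (23.6), *Nr1i2* (19.7), *Nr3c1* (8.66), *Nr1h2* (6.11), *Thrb* (5.25), *Pparg* (2.89) and *Esr1* (1.15). *Nr1i3* and *Ppara* did not differ beyond their spread, since their group means ran from 19.6 to 36.6 and from 19.9 to 37.2. *Nr1h3* and *Nr1i2* lay within those ranges or just below, and *Nr1h2* (5.88 to 6.52) was near *Thrb* (4.99 to 5.65). Per kilobase of the median coding transcript, *Nr3c1* moved to rank 4 and *Thrb* to rank 6, ahead of *Nr1h2* and *Nr1i2*, while the first 3 and last 2 kept their places. *Nr1i3* is affected by the overlap with *Tomm40l* described above.

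How much a receptor varied between mice of the same group differed widely. The SD of log2 CPM within groups was 0.091 for *Rxra*, 0.15 for *Nr1h3*, 0.18 for *Nr3c1*, 0.19 for *Nr1h2*, 0.20 for *Nr1i2*, 0.21 for *Ppara*, 0.28 for *Thrb*, 0.33 for *Esr1*, 0.47 for *Nr1i3* and 0.56 for *Pparg*. The median over all genes tested was 0.26. Counting error alone would give 0.26 for *Pparg*, with a mean of 44.3 counts, but 0.065 for *Nr1i3*, with 640 counts. *Nr1i3* thus varied 7.14 times as much as its counts alone would give, against 1.25 to 3.15 times for the other receptors.

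**Figure D4:**
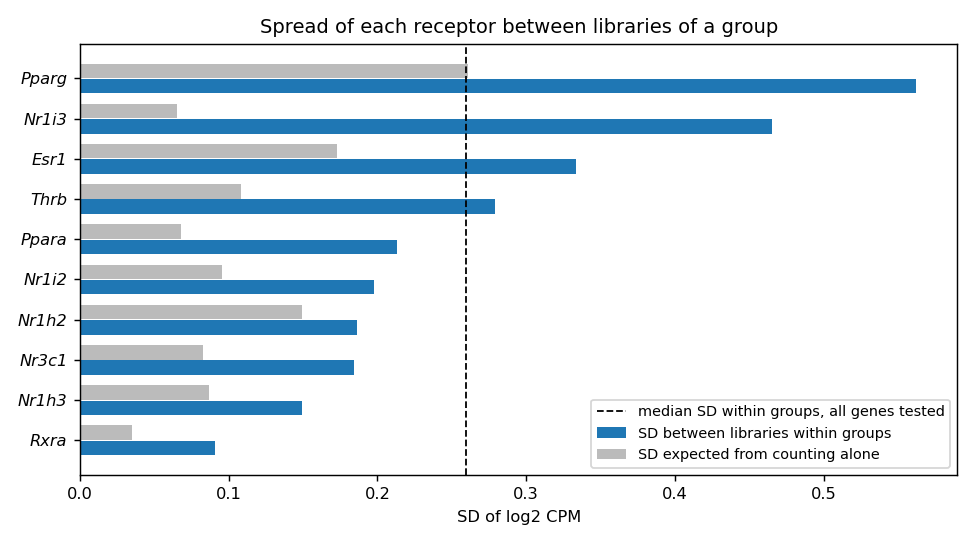
SD of log2 CPM between libraries within groups for each receptor (blue bars), the SD expected from counting alone (grey bars), and the median SD of all genes tested (dashed line, 0.26). *Pparg* and *Nr1i3* have the largest SDs, and counting alone would give 0.065 for *Nr1i3*, against 0.47 between libraries.

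Deviations from the group means were then correlated over the 16 libraries, as a description only, since the libraries of a group share their mean and all share the scaling. *Nr1i3* ran against *Esr1* (r = -0.81), *Nr1h3* (r = -0.56) and *Rxra* (r = -0.53), and with *Nr1i2* (r = 0.54). *Ppara*, *Nr3c1* and *Thrb* varied together (r = 0.66 for *Ppara* and *Nr3c1*, 0.65 for *Nr3c1* and *Thrb*, 0.58 for *Ppara* and *Thrb*), as did *Rxra* with *Esr1* (r = 0.69) and with *Nr1h3* (r = 0.67). For each called receptor, the 3 genes with the most similar deviations were *Lmbr1l* (r = 0.87), *Cfap20* (0.83) and *Cir1* (0.82) for *Ppara*, *Rp2* (0.80), *Pgk1* (0.80) and *Trmt112-ps2* (0.80) for *Pparg*, and *Zeb2* (0.91), *Stab2* (0.91) and *Hjurp* (0.91) for *Nr1i3*. *Stab2*, a scavenger receptor of liver sinusoidal endothelium, also rose on HFD, by 0.52 in saline mice (limma-voom adjusted p 0.0106) and by 0.52 in KD mice (adjusted p 0.0345). The 7 endothelial markers summed to 127 to 177 CPM in Chow, 142 to 165 in HFD, 84.4 to 150 in Chow/FGFR4 KD and 117 to 145 in HFD/FGFR4 KD, with none at 0, and 3 rose on HFD in saline mice and 1 in KD mice. Among all genes, 13.3% and 10.1% were called and higher in these comparisons. The part of endothelial cells in the *Nr1i3* result was not tested.

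Genes of the circadian clock differed between the diet groups in the same libraries, and *Ppara* is a known output of the clock. The hour of collection was not given in the sources used here. An effect of diet on the clock and a difference in that hour cannot be told apart. The first group held PAR bZIP and Per genes and the REV-ERB receptors *Nr1d1* and *Nr1d2*, which peak around or before dusk. Of its 8 tested genes, 6 rose on HFD in saline mice and 7 in KD mice. *Dbp* was higher by 4.32 (limma-voom adjusted p 0.00344) and 4.34 (adjusted p 0.0249). It was very low on chow, at 0.710 to 8.35 CPM in Chow and 0.397 to 1.60 in Chow/FGFR4 KD, so the size of these changes is uncertain. In HFD it was at 21.2 to 77.9 CPM and in HFD/FGFR4 KD at 13.7 to 34.5. All 5 genes of the opposite phase fell in both HFD comparisons, *Arntl* (BMAL1) by 2.09 in saline mice (adjusted p 0.00296) and by 0.73 in KD mice (adjusted p 0.162). Over all genes, 26% were called on HFD in saline mice, 20.2% in KD mice and 3.14% for KD on HFD. The first group summed to 188 to 284 CPM in Chow and 318 to 475 in HFD, and to 170 to 190.5 in Chow/FGFR4 KD and 311 to 379 in HFD/FGFR4 KD. Much of this came from *Nr1d1* and *Nr1d2*, with means of 74.3 and 47.1 CPM in Chow and 79.0 and 64.0 in HFD. The second summed to 146 to 191 in Chow, 51.5 to 76.1 in HFD, 150.1 to 236 in Chow/FGFR4 KD and 87.9 to 135 in HFD/FGFR4 KD, and no gene of either was at 0 in a whole group. KD on HFD raised 3 of the 5 of the second group (*Arntl* by 1.55, adjusted p 0.102, *Clock* by 0.53, adjusted p 0.177, and *Nfil3* by 1.16, adjusted p 0.186) and lowered 2 of the 8 of the first (*Per2* by 0.85, adjusted p 0.177, and *Dbp* by 1.09, adjusted p 0.249). Without HFD/FGFR4 KD 1 these counts were 1 and 0, and without HFD 3 both were 0. Within groups, the deviations of *Ppara* over 16 libraries had r = 0.13 with *Dbp*, 0.28 with *Tef*, 0.18 with *Hlf*, 0.31 with *Per3* and -0.18 with *Arntl*. In the same order r was -0.26, -0.25, 0.26, 0.11 and -0.18 for *Pparg*, and -0.23, 0.17, 0.61, 0.46 and 0.19 for *Nr1i3*. The part of the clock in the receptor results was not tested.

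Target genes were read from lists of textbook targets, whose members respond to more than a single receptor. These lists were chosen with earlier results of these data known, so their counts describe the listed genes and are not independent support. The counts are to be read against the 26% of all genes called for HFD in saline mice, 20.2% for HFD in KD mice and 3.14% for KD on HFD. These shares hold both directions. Of the 11324 genes, 1506 were called higher and 1433 lower for HFD in saline mice. The numbers were 1148 and 1145 for HFD in KD mice, and 170 and 186 for KD on HFD. Of 20 PPARA targets, 9 rose and 4 fell on HFD in saline mice (list median 0.32, median of all genes 0.01), and 5 rose and 2 fell in KD mice. *Cpt1a*, which admits fatty acids to mitochondria, rose by 0.82 (limma-voom adjusted p 0.00174) and 0.78 (adjusted p 0.00528), and *Vnn1*, a pantetheinase, by 1.74 in saline mice (adjusted p 0.00393), but *Angptl4*, an inhibitor of lipoprotein lipase, fell by 0.80 (adjusted p 0.0063) and 0.51 (adjusted p 0.10). KD on HFD lowered 4 of the 20 and raised none (median -0.29), and lowered 2 to 6 when single libraries were left out, with 2 without HFD/FGFR4 KD 1. Among them were *Hadhb* and *Hadha* of mitochondrial beta-oxidation (-0.55, adjusted p 0.0180, and -0.30, adjusted p 0.237) and *Vnn1* (-1.67, adjusted p 0.0428). KD on HFD and HFD in saline mice share the 4 HFD libraries, so they are not independent.

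Of 10 PPARG targets 5 passed the expression filter. On HFD in saline mice 4 of them rose, among them *Cidec*, a lipid droplet protein, by 3.62 (limma-voom adjusted p 0.0281) and *Cd36*, a fatty acid transporter, by 2.46 (adjusted p 0.00532), and 2 rose in KD mice. KD on HFD lowered *Cidec* by -2.29 (adjusted p 0.185) and *Plin4*, another lipid droplet protein, by -1.10 (adjusted p 0.0807). Of 11 tested LXR targets 3 rose on HFD in saline mice, with the cholesterol exporter *Abcg1* at 1.65 (adjusted p 0.0233) and the lipogenic regulator *Srebf1* at 0.82 (adjusted p 0.0852). *Abcg1* was low, at 0.522 to 2.84 CPM in Chow and 3.84 to 5.67 in HFD. In KD mice 1 LXR target fell on HFD, the exporter *Abca1* (-0.87, adjusted p 0.0425). KD on HFD lowered *Abcg8* (-1.18, adjusted p 0.0496) and *Abcg5* (-0.61, adjusted p 0.227), which together secrete cholesterol into bile.

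Of 15 targets of PXR and CAR 12 passed the expression filter. Of these, 1 rose and 5 fell on HFD in saline mice, and 0 rose and 5 fell in KD mice (2 and 5 without HFD/FGFR4 KD 1). *Cyp3a11*, a drug-oxidising enzyme, was at 4409 ± 282 CPM in Chow and 671 ± 405 CPM in HFD (mean ± SD, n = 4), a change of -2.95 (limma-voom adjusted p 0.000654), and changed by -2.15 (adjusted p 0.0127) in KD mice. The carboxylesterase *Ces2a* changed by -2.42 (adjusted p 3.28e-07) and -1.79 (adjusted p 3.0e-05), and *Cyp2c29* by -1.58 (adjusted p 0.000103) and -0.94 (adjusted p 0.00889). With the KD on HFD, *Cyp2c29* (0.68, adjusted p 0.102) and *Ces2a* (0.56, adjusted p 0.177) rose and *Aldh1a1*, a retinaldehyde dehydrogenase, fell (-0.46, adjusted p 0.102), whereas without HFD/FGFR4 KD 1 the counts were 3 and 0. *Cyp2b9* and *Cyp2b13*, P450 enzymes, missed the filter and so were not tested, and are named for their higher values on HFD. *Cyp2b9* was at 0.976 ± 1.52 CPM in Chow and 171 ± 114 in HFD (44.0 to 300.3, above every Chow library), and at 0.767 ± 0.931 in Chow/FGFR4 KD and 25.7 ± 27.3 in HFD/FGFR4 KD (mean ± SD, n = 4), where the groups overlapped. *Cyp2b13* was at 0 in all 8 chow libraries, at 0 to 14.5 CPM in HFD and at 0 to 0.284 CPM in HFD/FGFR4 KD. *Gadd45b* missed the filter too but was lower on HFD in mean. It was at 2.66 CPM in Chow and 0.374 in HFD, and at 3.64 in Chow/FGFR4 KD and 1.16 in HFD/FGFR4 KD. The tested target *Cyp2b10* was lower in mean as well (-1.10 in saline mice, limma-voom adjusted p 0.238) but was not called.

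Of 14 targets of the glucocorticoid receptor, 1 rose and 7 fell on HFD in saline mice, while *Nr3c1* itself did not pass the test. Those that fell included *Tat* of tyrosine breakdown (-1.43, limma-voom adjusted p 0.00885), *G6pc* of glucose output (-1.84, adjusted p 0.0109) and *Igfbp1* (-2.23, adjusted p 0.0140), and *Fkbp5*, a co-chaperone of the receptor, rose by 1.06 (adjusted p 0.0797). In KD mice 0 rose and 5 fell, and KD on HFD called none of the 14, or 3 higher without HFD 2. Of 5 tested thyroid hormone targets, 2 rose on HFD in saline mice and none was called in KD mice. KD on HFD lowered 2, *Gpd2*, a mitochondrial glycerol phosphate dehydrogenase (-0.63, adjusted p 0.0807), and *Dio1*, the enzyme that activates thyroid hormone (-0.67, adjusted p 0.211). This number lowered ran from 0 to 3 when single libraries were left out.

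**Figure D5:**
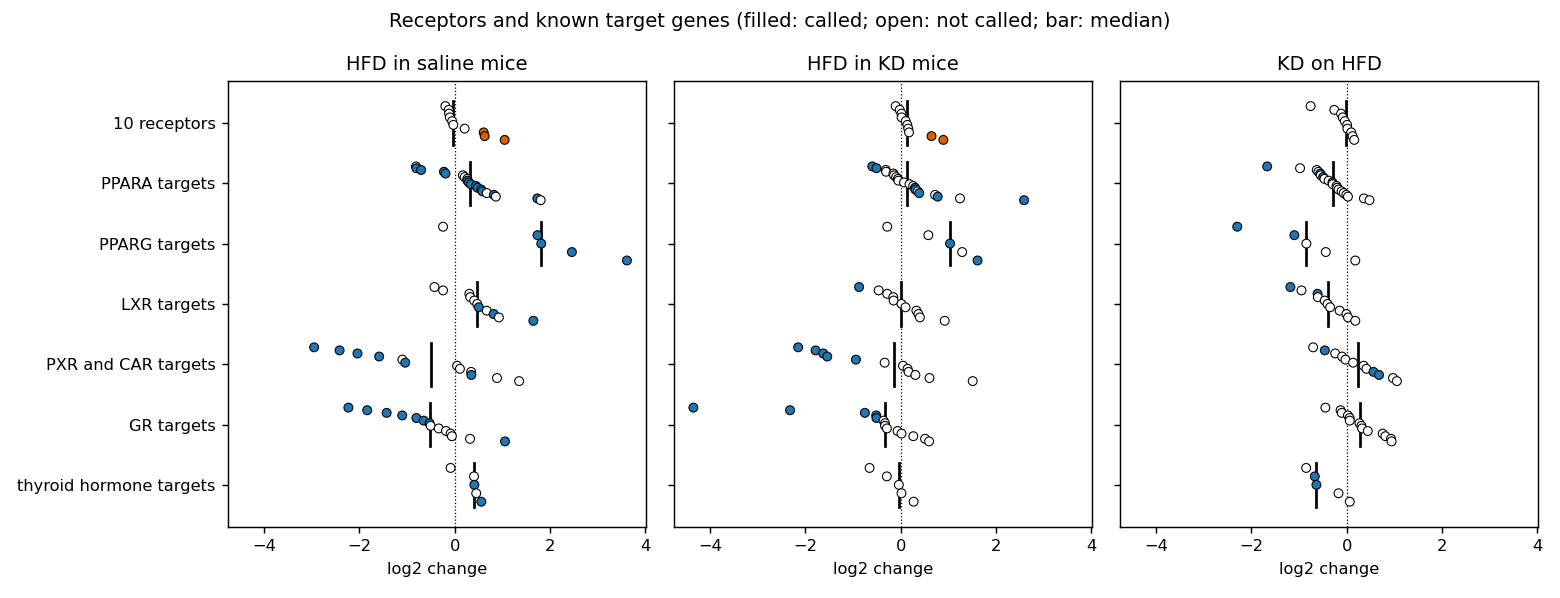
Log2 change (x axis) of the 10 receptors and of the tested genes on 6 lists of known targets in 3 comparisons. Points are genes, filled where called, and bars are list medians. The medians of the PPARA list are 0.32, 0.13 and -0.29 from left to right, and in both HFD panels 5 PXR and CAR targets lie below 0 as filled points.

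Other components of receptor signalling were counted by the same rule, on lists chosen in the same way, and against the same background shares. Of 24 tested other nuclear receptors, 2 rose and 3 fell on HFD in saline mice, and 6 rose and 1 fell in KD mice. They include *Nr1d1* and *Nr1d2*, which were also counted with the clock genes. *Rora*, a clock-linked orphan receptor, fell by 0.59 (limma-voom adjusted p 0.00591) and 0.60 (adjusted p 0.0136), *Rara*, a retinoic acid receptor, rose by 0.80 (adjusted p 0.0122) and 0.64 (adjusted p 0.0586), and *Hnf4a*, a receptor that maintains hepatocyte identity, fell by 0.44 in saline mice (adjusted p 0.108). KD on HFD called 0 of the 24. Of 20 coregulators, 0 rose and 3 fell on HFD in saline mice, with the acetyltransferase *Crebbp* at -0.60 (adjusted p 0.00369), and 7 fell without Chow 3. In KD mice 2 fell, and KD on HFD raised 1, the coactivator *Ncoa2* (0.27, adjusted p 0.235). Leaving out single libraries gave 0 to 3 lower in KD mice and 0 to 1 raised for KD on HFD.

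Of 10 receptor chaperones, which hold steroid receptors ready for hormone, 1 rose and 5 fell on HFD in saline mice and 0 rose and 4 fell in KD mice. With single libraries left out, 3 to 6 fell in saline mice and 0 to 6 in KD mice. *Hsp90aa1* fell by 0.65 (limma-voom adjusted p 0.0895) and 0.75 (adjusted p 0.0902). Of 10 tested enzymes and carriers that set ligand supply, 1 rose and 4 fell on HFD in saline mice, and 2 rose and 4 fell in KD mice. KD on HFD raised 2 and lowered 4, among them *Cyp27a1*, which makes oxidised cholesterol (0.32, adjusted p 0.211), and *Fabp1*, the liver fatty acid binding protein (-0.56, adjusted p 0.211). Leaving out single libraries gave 0 to 3 raised and 0 to 3 lowered, so the 4 lowered with all libraries were not reached again. On chow the KD called no gene of any of these lists. No receptor separated KD from saline libraries without overlap, where 6.54% of all genes did so on HFD and 2.5% on chow.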

How the data were processed

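The authors pseudoaligned reads with kallisto after trimming with fastp and summed transcripts to genes, so the deposited values are expected counts (estimated counts that need not be whole, here for 7.83% to 11.1% of entries), with no scaling seen in the table. GRCm38 is named in the submitters' notes, and tool versions were not given in the sources used here. Symbols were found for 98.5% of gene identifiers. Per the labels the liver libraries were made with an mRNA kit (KAPA mRNA HyperPrep), whereas the study's methods name HTG EdgeSeq, which reads probes. Levels per kilobase and the overlap of *Nr1i3* with *Tomm40l* apply only if reads came from whole transcripts.

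Genes under 1 CPM in more than 4 of 16 libraries were left out. Counts were scaled by TMM (edgeR 4.0.16) and fitted with limma-voom (limma 3.58.1, R 4.3.3), with a mean for each group and adjustment over all 11324 genes. Other settings tried were DESeq2 1.42.0 on rounded counts, the quasi-likelihood test of edgeR, library totals, no filter, only the groups compared, a replicate block, an adjusted p under 0.05 and leaving out each library. Contrasts averaged over diets or treatments, ratios between receptors, and list counts with each library left out were added after the data were seen. Members and gene lists were chosen with earlier results of these data known. The text names the 10 receptors, *Fgfr4*, at most 4 called genes of a list and comparison by smallest p, and for each called receptor the 3 genes most alike in deviations from group means, passing over predicted genes. *Tomm40l*, the adipocyte markers not called, *Cyp2b9*, *Cyp2b13*, *Gadd45b* and *Cyp2b10* were named after their values were seen. The pipeline was tested on simulated data. Shared sequence was counted in 31-base words of GENCODE transcripts, and upstream sequences are RefSeq's. Python 3.11.15 was used for descriptions and figures.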

Additional observations from a re-analysis of the deposited data

Results flagged for a closer look

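*Pparg* in HFD/FGFR4 KD 3 stood apart from its group, with 10.3 CPM against 6.42, 6.48 and 6.50 CPM in the other 3 libraries. The gap was 0.978 of the range of the group, more than the Dixon limit at 95% allows with 4 libraries. It was the only one of 40 sets of values (10 receptors in 4 groups) past that value, where chance gives about 2.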

How the results depend on the processing

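Under each alternative tried, *Ppara* stayed called in both HFD comparisons and no receptor but *Pparg* (without HFD 2) was called for KD on either diet. Small changes took the other sign with library totals than with TMM. *Pparg* had only 14 to 107 counts a library, and its SD within groups was 0.56, where counting alone would give 0.26. The cause of these and other changes between settings was not tested.

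With library totals, 5 receptors were called for HFD in saline mice, 4 in KD mice and 8 over both treatments. The log2 changes for HFD in saline mice were then 0.23 for *Rxra*, 0.25 for *Nr1h2*, 0.17 for *Nr1h3*, 0.18 for *Nr1i2*, 0.086 for *Nr3c1* and 0.15 for *Thrb*. In KD mice they were 0.14 for *Nr1i2* and 0.052 for *Thrb*. For KD on HFD they were -0.065 for *Nr1h3* and -0.067 for *Thrb*, for KD on chow 0.031 for *Thrb*, and for the difference between the KD effects -0.079 for *Ppara*, -0.04 for *Nr1i2* and -0.10 for *Thrb*. All these had the other sign with TMM. *Thrb* for KD on HFD was -0.008 with edgeR and -0.011 with DESeq2, and for KD on chow 0.003 without a filter. *Pparg* for KD on chow was -0.071 with edgeR and -0.066 with DESeq2.

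At an adjusted p under 0.05, 1 receptor remained in each HFD comparison, and gene counts were 31 for KD on HFD (356 at the threshold of the study), 1042 for HFD in saline mice (2939), 351 in KD mice (2293), 1 for the difference (4), 2 for KD over both diets (55) and 2099 for HFD over both treatments (3763). Library totals gave 114 for KD in HFD mice, 3 for KD on chow, 0 for the difference and 9 for KD over both diets. With limma-voom on library totals, no gene passed for the difference, where with TMM 765 had an unadjusted p under 0.05 and DESeq2 called 54. DESeq2 gave 2 for KD on chow and, for KD over both diets, 215 genes and 1 receptor. Fitting only the groups compared gave 2 for KD on chow. No filter gave 5324 for HFD in saline mice, 6831 over both treatments and 7 for the difference. Deviations from group means of same-numbered samples correlated between -0.26 and 0.22. Differently numbered samples were not compared, so pairing by number was neither shown nor excluded. The replicate block changed the difference to 2 genes and changed no receptor's call.

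Leaving out a library gave 0 to 1 receptors for KD on HFD, and gene counts of 89 (without HFD 3) to 622 (without HFD 2) for KD in HFD mice, 1 to 2 for KD on chow, 1189 (without HFD/FGFR4 KD 4) to 2535 (without HFD/FGFR4 KD 1) for HFD in KD mice, 1 to 27 for the difference and 5 (without Chow 3) to 84 for KD over both diets. Changes that crossed 0 when a library was left out ran, for KD on HFD, from -0.08 to 0.069 for *Nr1h3*, -0.16 to 0.092 for *Nr1i3*, -0.086 to 0.13 for *Thrb* and -0.18 to 0.115 for *Esr1*. For KD on chow they ran from -0.115 to 0.55 for *Pparg*, -0.04 to 0.12 for *Nr1h2* and -0.175 to 0.18 for *Thrb*. For HFD in saline mice they ran from -0.12 to 0.068 for *Nr1h2* and -0.30 to 0.059 for *Thrb*. For HFD in KD mice they ran from -0.027 to 0.30 for *Pparg*, -0.07 to 0.079 for *Nr1h3*, -0.15 to 0.078 for *Nr1i2* and -0.089 to 0.10 for *Esr1*. For the difference they ran from -0.064 to 0.15 for *Ppara*, -0.051 to 0.18 for *Nr1i2*, -0.006 to 0.46 for *Nr1i3* and -0.16 to 0.19 for *Thrb*.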

Other observations

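The spread of some receptors between mice differed by group, as values with no test. The SD of log2 CPM of *Thrb* over 4 libraries was 0.47 in Chow, 0.10 in Chow/FGFR4 KD, 0.28 in HFD and 0.052 in HFD/FGFR4 KD. That of *Pparg* was 0.89, 0.24, 0.56 and 0.33 in the same order, and that of *Nr1i3* was 0.55, 0.62, 0.24 and 0.35. *Rxra* had an SD of 0.021 in Chow/FGFR4 KD and 0.083 to 0.13 in the other groups.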
